A study of Arabidopsis thaliana with 12 samples.

Results

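Expression of 10 genes of the brassinosteroid pathway was followed through an RNA-Seq experiment on Arabidopsis seedlings. They were chosen by gene identifier, for their known roles: DET2 (AT2G38050), DWF4 (AT3G50660), CPD (AT5G05690), ROT3 (AT4G36380), CYP90D1 (AT3G13730), BR6OX1 (AT5G38970) and BR6OX2 (AT3G30180) make the hormone, BAS1 (AT2G26710) inactivates it, and BZR1 (AT1G75080) and BES1 (AT1G19350) are transcription factors that act at the end of its signalling chain. These are 10 of the 37336 genes in the files, and all 10 were among the 20664 genes that passed the filter on low counts.

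The experiment asked how warmth, an over-expressed long noncoding RNA and the loss of a methylcytosine-binding protein change the transcriptome. RNA was prepared from seedlings that were all 4 days old and in the Col-0 background, in 4 groups of 3 libraries each, labelled A, B and C. The groups were WT kept at 23 °C (WT 23C), WT exposed to 29 °C for 6 h (WT 29C), 35S:APOLO kept at 23 °C, a single line in which the 35S promoter drives the lncRNA APOLO, and vim1-3 kept at 23 °C, a T-DNA insertion line with little VIM1 transcript. Neither line was sequenced at 29 °C, so no response to warmth can be given for either.

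Brassinosteroids are steroid hormones that plants need for cell elongation, and mutants that cannot make or sense them are dwarfs. The hormone is built from campesterol by a reductase, DET2, and a set of cytochrome P450 enzymes. It is perceived at the cell surface by the receptor kinase BRI1, and the signal leads to dephosphorylation of BZR1 and BES1, which then act on their target genes in the nucleus. Among the known targets of BZR1 are synthesis genes that it represses, so that the pathway is held back by its own product, and the elongation of hypocotyls in the warmth is known to need the hormone.

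Between 8824476 and 22925019 reads per library were counted on genes. VIM1 had 1 to 5 counts in the vim1-3 libraries and 56 to 241 in all others. APOLO had 4984 to 11720 counts in the 35S:APOLO libraries and 1 to 18 in 8 others, but 1197 in the library labelled WT 23C replicate A, which goes against its label, so that calls which change without this library are given below. The WT 23C libraries also varied more than those of the other groups, with a median SD of log2 CPM over the 10 genes of 0.26, against 0.15 in WT 29C, 0.12 in 35S:APOLO and 0.06 in vim1-3. Marker genes of shoots (RBCS1A and 3 others) summed to 601273 to 924682 normalised counts over the 12 libraries and those of roots to 37730.0 to 86002, of which the beta-glucosidase PYK10 alone gave 37606 to 81750. Markers of flowers stayed between 15.1 and 66.7, while those of seeds ran from 26.4 to 143 in WT 23C and from 249 to 431 in WT 29C. The range of the seed markers was 47.5 to 414 in 35S:APOLO and 71.5 to 90.2 in vim1-3.

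Levels below are normalised counts. Each count was divided by its library's effective size, the summed count of the genes that passed the filter times the TMM factor. It was then brought to a common size of 18009916 counts, the mean over libraries. A gene is called when the adjusted p of edgeR's quasi-likelihood test is below 0.01. Fold changes are on the log2 scale with their standard error, and 3 libraries per group stand behind each mean.

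Per kilobase of exon, the scale on which genes can be compared with each other, CPD had the highest level of the 10 genes in all 4 groups. Its mean level was 1851 normalised counts per kb in WT 23C, 2606 in WT 29C, 1384 in 35S:APOLO and 1640 in vim1-3, and its libraries did not overlap with those of the next gene in any group. BES1 came second in each group, with mean levels per kb of 894, 808, 567 and 607 in the same order. DET2 followed at 239 to 289, but its WT 23C libraries overlapped with those of BZR1. BZR1 and ROT3 overlapped with each other in every group and ROT3 also with DWF4 and BR6OX2 in WT 23C. Below them came DWF4 and BR6OX2, which overlapped in all groups but vim1-3. BAS1, the inactivating enzyme, lay below them at 60.5 per kb in WT 23C and 148 in WT 29C, where it overlapped with DWF4 and BR6OX2. CYP90D1 and BR6OX1 had the lowest levels, between 16.4 and 39.6 per kb, and changed places in WT 29C, where the mean of BR6OX1 was 28.2 and that of CYP90D1 22.1 per kb, with overlapping libraries.

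**Figure D1:**
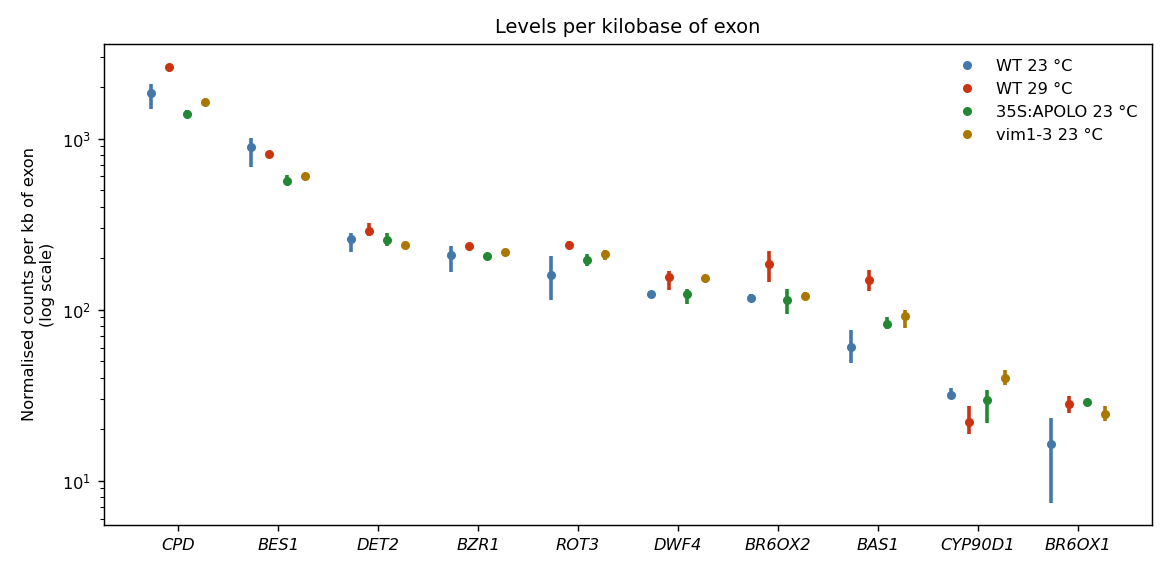
Mean level of each brassinosteroid gene in normalised counts per kilobase of exon (log axis), with lines from the lowest to the highest of the 3 libraries of a group. CPD is at the top in all 4 groups, and CYP90D1 and BR6OX1 are at the bottom.

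In WT seedlings, 6 h at 29 °C went with higher transcript levels of CPD, BR6OX2 and BAS1, that is, of 2 synthesis genes and of the inactivating enzyme. The other 7 genes were not called. The median log2 fold change of the 10 genes was 0.41, beside -0.01 over all genes tested. With 3 of 10 genes called, against 20.6% of all genes tested (7.88% higher and 12.8% lower), the share of calls in either direction was not far from the background. All 3 calls were higher, and their share was not tested against the 7.88%. Of all calls 38.2% were higher, and 51.2% with upper-quartile factors. In 7 of the 10 genes the libraries of the 2 groups did not overlap, as in 43.9% of all genes. The root markers PIN2, COBL9, EXPA7 and TIP2;3 had 2.08, 3.98, 6.43 and 4.6 times the WT 23C level at 29 °C, without overlap and without a call (edgeR adjusted p = 0.0180 to 0.0773), and WT 23C replicate B held 2 counts each of COBL9 and EXPA7. The remaining root marker, PYK10, overlapped between temperatures, at 37606 to 53308 normalised counts in WT 23C and 47224 to 54847 in WT 29C. The jasmonate-induced genes VSP1, VSP2, LOX2, NATA1 and PDF1.2 summed to 886 to 8497 normalised counts in WT 23C and 230 to 241 in WT 29C. Of these 5 genes, 3 were called lower at 29 °C. VSP1 went the other way, at 30.6 to 49.8 in WT 23C and 55.6 to 90.7 in WT 29C. The part of the root markers and of the jasmonate-induced genes in the results at 29 °C was not tested. Since RNA of seedlings and not of single cell types was sequenced, fewer cells of a type and less RNA per cell cannot be told apart.

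CPD, a P450 enzyme (CYP90A1) that oxidises the steroid ring early in the pathway, had 2887, 4038 and 3786 normalised counts in WT 23C (replicates in letter order, as throughout) and 5038, 4910.5 and 5130.4 in WT 29C. All 3 warm libraries lay above all 3 cool ones. The level was 1.41-fold higher at 29 °C, a log2 fold change of 0.49 ± 0.11 (SE; edgeR's quasi-likelihood test, adjusted p = 0.00436). In 35S:APOLO it had 2842, 2559.8 and 2608 normalised counts, and in vim1-3 it had 3124, 3234 and 3130.0. The 35S:APOLO libraries were thus the lowest of all 4 groups for this gene, just under the library labelled WT 23C replicate A.

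BR6OX2 (CYP85A2) is the enzyme that carries out the last steps, to castasterone and on to brassinolide, the most active of these hormones. It had 224, 235 and 214 normalised counts in WT 23C and 365, 279 and 418 in WT 29C. The warm libraries again lay above the cool ones, although replicate B by less than the others. The level was 1.58-fold higher at 29 °C (log2 fold change 0.66 ± 0.15, edgeR adjusted p = 0.00545). In the 2 lines kept at 23 °C the gene stayed near its WT 23C level, with 180.4, 251 and 218 normalised counts in 35S:APOLO and 220.2, 242 and 228 in vim1-3.

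BAS1 (CYP734A1) hydroxylates active brassinosteroids and so takes them out of use. Its normalised counts were 108, 168 and 125 in WT 23C and 285, 324 and 375 in WT 29C. It showed the largest size of change of the 10 genes at 29 °C, 2.45-fold (log2 fold change 1.29 ± 0.17, edgeR adjusted p = 0.000175), with a wide gap between the groups. The lines kept at 23 °C lay between them, with 169, 200.4 and 179.6 normalised counts in 35S:APOLO and 211, 173 and 219.8 in vim1-3. All 6 of those libraries were above the highest WT 23C library and below the lowest WT 29C library.

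The call of BAS1 at 29 °C held in each of 12 fits that left out 1 library, with log2 fold changes from 1.13 to 1.51. That of CPD was lost without WT 29C replicate B (log2 fold change 0.51, edgeR adjusted p = 0.0125) or replicate C (0.48, 0.0175), and that of BR6OX2 without WT 29C replicate A (0.67, 0.0163) or replicate C (0.52, 0.0278) and without WT 23C replicate C (0.63, 0.0203). With edgeR on the 6 libraries compared, BAS1 alone kept its call (CPD adjusted p = 0.0489, BR6OX2 0.0332), and CPD also missed the threshold with DESeq2 on those 6 (0.0111) and BR6OX2 with limma voom (0.0574).

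The remaining synthesis genes were not called at 29 °C, although ROT3 was with DESeq2 on the 12 libraries (log2 fold change 0.60, adjusted p = 0.00530). ROT3, which hydroxylates the steroid side chain together with CYP90D1, had a mean of 383 ± 109 (SD) normalised counts in WT 23C and 575 ± 27.0 in WT 29C (log2 fold change 0.58 ± 0.16, edgeR adjusted p = 0.0157). DWF4, the side-chain hydroxylase held to set the rate of the whole pathway, had 352 ± 6.0 and 439 ± 59.9 (0.32 ± 0.11, edgeR adjusted p = 0.0406). BR6OX1 (CYP85A1), the other enzyme that makes castasterone, had 33.5 ± 16.6 and 57.8 ± 6.51 (0.70 ± 0.28, edgeR adjusted p = 0.0723), with 7 counts behind its value in WT 23C replicate C, the library with the fewest reads. The libraries of these 3 genes did not overlap between temperatures and were higher at 29 °C. CYP90D1 was the one synthesis gene with lower libraries in the warmth, at 49.2 ± 9.93 against 70.5 ± 5.64 (log2 fold change -0.52 ± 0.21, edgeR adjusted p = 0.0798), again without overlap. DET2, the reductase, overlapped between temperatures (318 ± 31.0 and 283 ± 39.7, edgeR adjusted p = 0.280).

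Without the library labelled WT 23C replicate A, 6 genes were called at 29 °C in place of 3: ROT3 (log2 fold change 0.84), BR6OX1 (0.98) and BES1 (-0.30) were added. The share of all genes called was also larger, 34.1% in place of 20.6%. DWF4 was added without WT 29C replicate B (log2 fold change 0.43, edgeR adjusted p = 0.00876), where 13.4% of all genes were called.

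**Figure D2:**
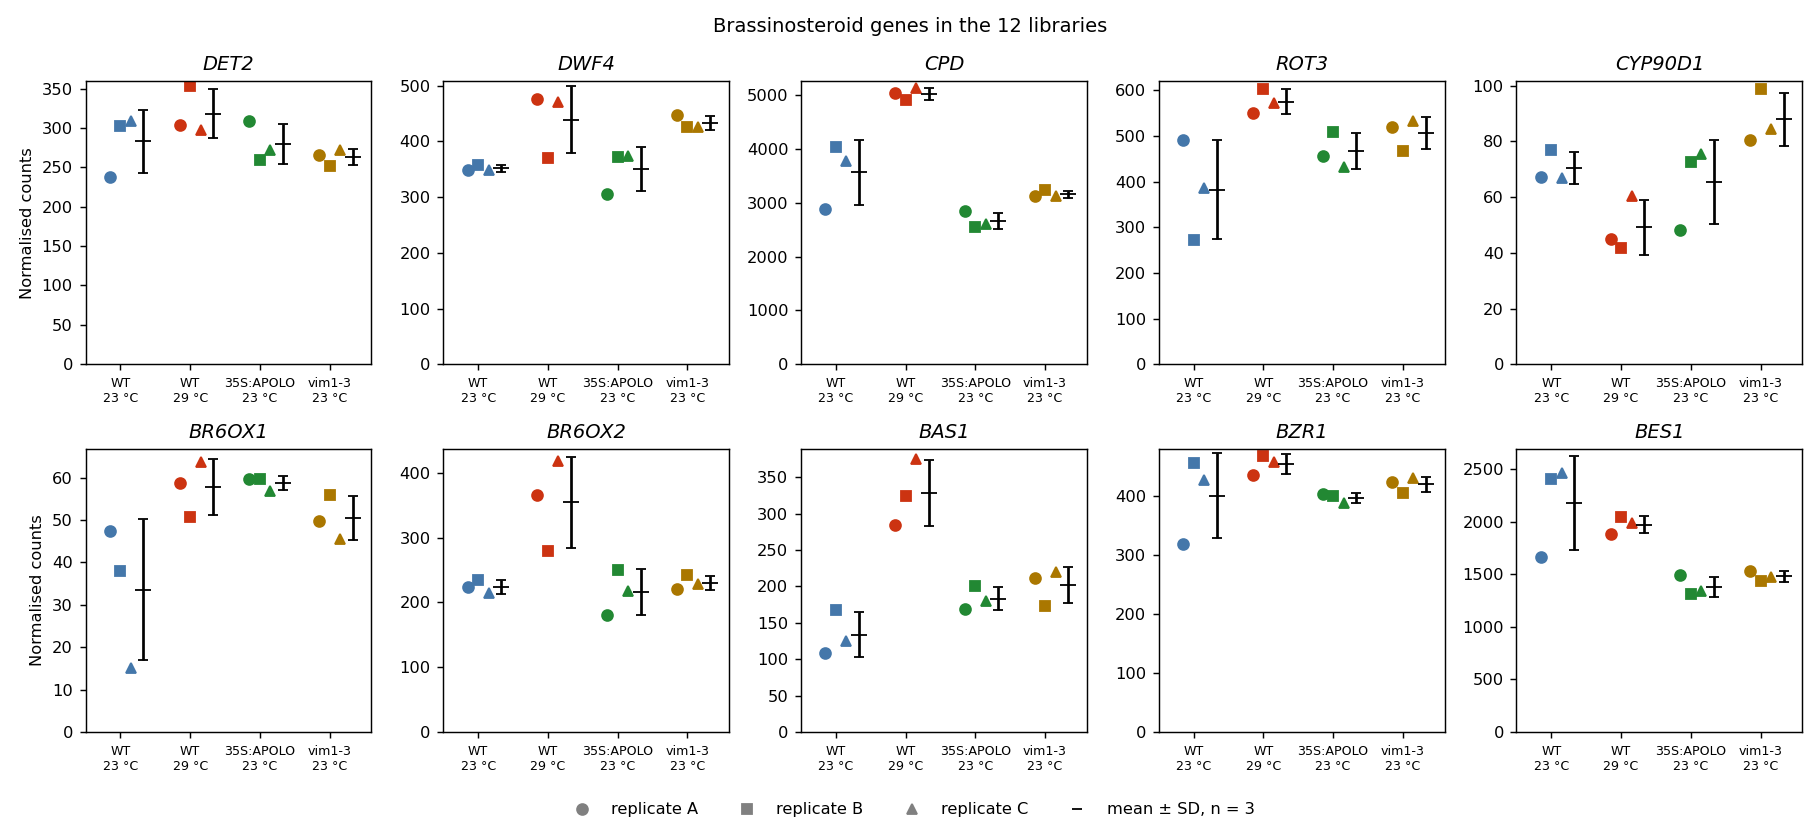
Normalised counts of the 10 brassinosteroid genes (vertical axes, each from 0) in every library of the 4 groups, with the mean ± SD (n = 3) beside the points. BAS1, CPD and BR6OX2 are higher in all 3 WT 29C libraries than in any other library, while BES1 is lower in 35S:APOLO and vim1-3 than in any WT library.

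The transcription factor genes were not called at 29 °C. BZR1 had 319, 454 and 426 normalised counts in WT 23C, 435, 467 and 458 in WT 29C, 403, 399.9 and 387 in 35S:APOLO, and 423, 405 and 429.8 in vim1-3. The library labelled WT 23C replicate A had the lowest of these values, and the other 3 groups all fell inside the range of WT 23C but for 2 libraries of WT 29C. BZR1 was called in 0 of the 6 comparisons among the groups by edgeR's quasi-likelihood test, in 0 of them at an unadjusted p under 0.05, and in 0 by DESeq2 on the 12 libraries. The interval of its log2 fold change at 29 °C was -0.06 to 0.43 (95%).

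BES1, its closest relative, had 1666, 2407 and 2462 normalised counts in WT 23C and 1881, 2044 and 1983 in WT 29C, and these ranges overlapped. The log2 fold change at 29 °C was -0.14 ± 0.13 (edgeR adjusted p = 0.405). In 35S:APOLO it had 1489, 1309.7 and 1344 normalised counts, and in vim1-3 it had 1528, 1431 and 1477. The 6 libraries of the lines lay below all 6 WT libraries.

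BES1 was the single gene of the 10 that was called between 35S:APOLO and WT 23C, beside 10.3% of all genes tested (2.60% higher and 7.68% lower). Its level was 0.635-fold that of WT 23C (log2 fold change -0.66 ± 0.13, edgeR adjusted p = 0.00370). In vim1-3 the value was -0.56 ± 0.13 and was not called (edgeR adjusted p = 0.0115). The 2 comparisons share the WT 23C libraries. The difference between the 2 lines themselves was -0.10 ± 0.13, with an interval of -0.37 to 0.17 (edgeR adjusted p = 0.729).

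Among the WT 23C libraries, replicates B and C were high in BES1. Without the library labelled WT 23C replicate A it was called with a log2 fold change of -0.82, whereas the call was lost without WT 23C replicate B (-0.58, edgeR adjusted p = 0.0111) or C (-0.56, 0.0172) and without 35S:APOLO replicate A (-0.68, 0.0114), B (-0.62, 0.0217) or C (-0.60, 0.0211). It was also lost on the 6 libraries compared with edgeR (adjusted p = 0.0646) or DESeq2 (0.0101). The summed level of 5 jasmonate-induced genes, VSP1, VSP2, LOX2, NATA1 and PDF1.2, was 8497 and 6156 normalised counts in WT 23C replicates B and C and came to 886 in the library labelled replicate A and to 79.8 to 241 in the 9 libraries of the other groups, where 1 or 2 of the 5 genes were at 0. VSP1 had 30.6 and 49.8 normalised counts in WT 23C replicates B and C. These values overlapped with 35S:APOLO (41.9 to 91.2) and lay below WT 29C (55.6 to 90.7), but vim1-3 was lower, at 17.6 to 25.9. Root markers summed to 37730.0 to 55539 in WT 23C, 71775 to 86002 in 35S:APOLO and 54589.7 to 60568 in vim1-3, nearly all of it from PYK10. The other 4 root markers, PIN2, COBL9, EXPA7 and TIP2;3, were 2.49 to 5.44-fold higher in 35S:APOLO and 2.66 to 3.81-fold higher in vim1-3 than in WT 23C without overlap, and PIN2 was called in both lines and PYK10 in 35S:APOLO. The part of these differences in the BES1 result and in the other values of the lines against WT 23C was not tested. BES1 shares 818 of its 2437 exon bases with RRA3 on the opposite strand, and the strand setting of the counting is not given in the sources used here. RRA3 had 861 ± 133 (SD) normalised counts in WT 23C and 768 ± 76.0 in 35S:APOLO (log2 fold change -0.16, edgeR adjusted p = 0.315).

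CPD and BAS1 came next in the comparison of 35S:APOLO with WT 23C. CPD had a log2 fold change of -0.42 ± 0.11 without passing the threshold (edgeR adjusted p = 0.0170), and BAS1 one of 0.45 ± 0.17 (edgeR adjusted p = 0.0785). In both, as in BES1 and BR6OX1 (0.72 ± 0.28, edgeR adjusted p = 0.0865), the libraries did not overlap between the groups, so that 4 of 10 genes were separated, beside 33.5% of all genes. DWF4, DET2, BZR1 and BR6OX2 had log2 fold changes between -0.05 and -0.0043. Without the library labelled WT 23C replicate A, CPD (-0.55) was called lower and ROT3 (0.54) higher as well, giving 3 calls, beside 29.3% of all genes in place of 10.3%. Without WT 23C replicate B or C, 0 of the 10 genes were called, beside 7.09% and 5.1% of all genes. Without any one 35S:APOLO library the count was also 0, beside 3.1% to 4.03% of all genes.

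Between vim1-3 and WT 23C, 0 of the 10 genes were called by edgeR's quasi-likelihood test, beside 6.63% of all genes tested (2.19% higher and 4.45% lower). At an unadjusted p under 0.05 there were 4 of the 10, beside 7200 of all 20664 genes tested. DESeq2 on the 12 libraries called 1, BES1 (log2 fold change -0.54, adjusted p = 0.00131), beside 7.75% of all genes. BAS1 had a log2 fold change of 0.59 ± 0.17 (edgeR adjusted p = 0.0311) and DWF4 one of 0.30 ± 0.11 (edgeR adjusted p = 0.0744). DWF4 had 447, 426 and 425 normalised counts in vim1-3 and 348, 358 and 348 in WT 23C. Its libraries were separated, as were those of BES1, BAS1 and CYP90D1, 4 of 10 genes beside 36.2% of all genes. Without the library labelled WT 23C replicate A, CPD (log2 fold change -0.31), ROT3 (0.66) and BES1 (-0.72) were called, beside 26.8% of all genes in place of 6.63%. Without replicate B, BAS1 was called (0.81), beside 3.66% of all genes.

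The lines were also set against each other, since both were compared with the same WT 23C libraries. Between 35S:APOLO and vim1-3, 0 of the 10 genes were called by edgeR's quasi-likelihood test, beside 1.87% of all genes (0.581% higher and 1.29% lower). An unadjusted p under 0.05 was found for 2 of the 10, beside 4164 of all 20664 genes tested. DESeq2 on the 12 libraries called 0, beside 2.87% of all genes. Those 2 genes were DWF4, at a log2 fold change of -0.30 ± 0.11 in 35S:APOLO relative to vim1-3 (edgeR adjusted p = 0.136), and CPD, at -0.24 ± 0.11 (edgeR adjusted p = 0.234). In 5 of 10 genes the libraries did not overlap, beside 36.5% of all genes. For the enzymes BR6OX2 and BAS1 the intervals of the difference were -0.41 to 0.25 and -0.50 to 0.22.

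When WT 29C was set against the lines at 23 °C, CPD, BR6OX2 and BAS1 were again the genes called, all higher in WT 29C. These comparisons use the same WT 29C libraries as the comparison within WT, and they differ in genotype as well as in temperature, which cannot be told apart here. Against 35S:APOLO, 3 of 10 genes were called, beside 8.17% of all genes (4.70% higher and 3.47% lower), and 6 were separated, beside 42.2%. CPD had the largest log2 fold change of them, 0.91 ± 0.11 (edgeR adjusted p = 0.000237), followed by BAS1 (0.84 ± 0.16, 0.00452) and BR6OX2 (0.71 ± 0.15, 0.00694). Against vim1-3, 3 of 10 were called, beside 13.6% of all genes (6.75% higher and 6.88% lower), and 8 were separated, beside 54.1%. The log2 fold changes were 0.67 ± 0.11 for CPD (edgeR adjusted p = 0.000995), 0.70 ± 0.16 for BAS1 (0.00824) and 0.63 ± 0.15 for BR6OX2 (0.00907).

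CPD kept its call against both lines in each of the 12 fits without 1 library. Against 35S:APOLO, that of BAS1 was lost without WT 29C replicate B (log2 fold change 0.85) or C (0.73) or without 35S:APOLO replicate A (0.78), B (0.91) or C (0.82), and that of BR6OX2 without WT 29C replicate A (0.68) or C (0.57), 35S:APOLO replicate A (0.59) or C (0.70), or any vim1-3 library (0.71 in each case). Against vim1-3, BAS1 was called without WT 23C replicate A or B and lost without any of the other 10 libraries (0.59 to 0.80), and BR6OX2 was lost without WT 23C replicate C (0.63), WT 29C replicate A (0.61) or C (0.49), 35S:APOLO replicate C (0.63) or vim1-3 replicate A (0.59), B (0.66) or C (0.62).

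CYP90D1 and BES1 were near the threshold in these comparisons. CYP90D1, a side-chain hydroxylase, had 45.2, 41.9 and 60.5 normalised counts in WT 29C and 80.5, 98.7 and 84.4 in vim1-3, a log2 fold change of -0.82 ± 0.21 in WT 29C (edgeR adjusted p = 0.0125). It passed the threshold without WT 23C replicate A (-0.81) or B (-0.82) or 35S:APOLO replicate A (-0.82), with limma voom, with a minimum of 10 counts, with DESeq2 on the 12 libraries and with edgeR or DESeq2 on the 6 libraries compared (-0.82 to -0.79). The log2 fold change of BES1 in WT 29C relative to 35S:APOLO was 0.51 ± 0.13 (edgeR adjusted p = 0.0156) and relative to vim1-3 it was 0.41 ± 0.13 (edgeR adjusted p = 0.0307). It passed the threshold against 35S:APOLO without WT 23C replicate A (0.51) or B (0.51) and against vim1-3 without replicate A (0.41). It also passed with upper-quartile factors (0.52 and 0.45), voom (0.51 and 0.41) and edgeR or DESeq2 on 6 libraries (0.51 and 0.42, 0.51 and 0.41), and against 35S:APOLO with DESeq2 on the 12 libraries (0.50).

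**Figure D3:**
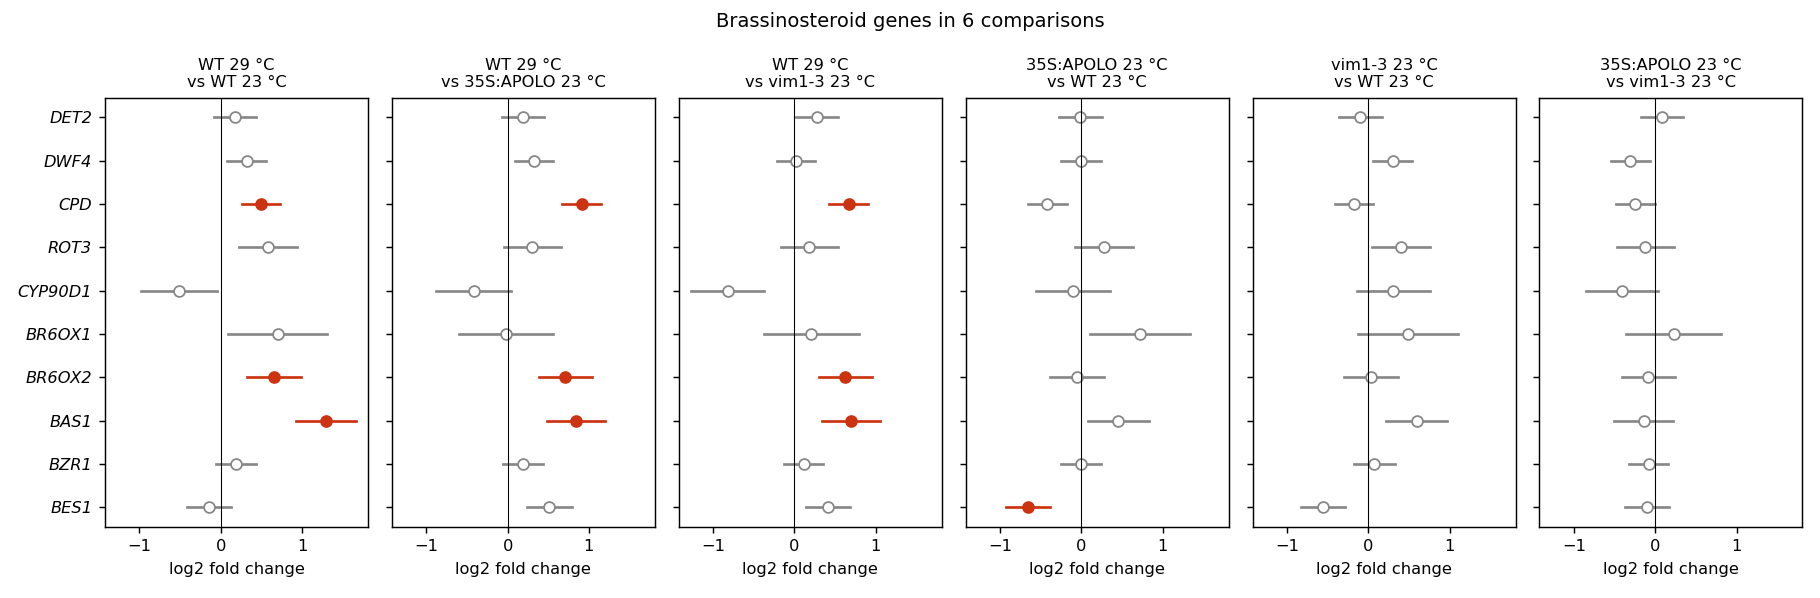
Log2 fold changes of the 10 brassinosteroid genes in the 6 comparisons among the groups, with lines for the 95% intervals and filled red points for genes called at an adjusted p below 0.01. CPD, BR6OX2 and BAS1 are called in the 3 comparisons with WT 29C, and BES1 in 35S:APOLO against WT 23C.

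Over the 12 libraries the log2 CPM of the members varied together in part, a description of points that share groups and library sizes. Pearson's r was 0.77 between CPD and BR6OX2, 0.77 between BR6OX2 and BAS1, 0.47 between BZR1 and BES1 and -0.62 between BR6OX1 and BES1. Among all other genes tested, those with the pattern most like CPD were IAA2, an early auxin-induced gene, and RAB18, an abscisic acid-induced dehydrin (r = 0.98 for both, n = 12). For BR6OX2 they were AT1G11120 (0.945) and CSN6A, a subunit of the COP9 signalosome (0.936). For BAS1 they were AT2G37050 (0.953) and ENODL18 (0.948), and for BES1 the kinase gene SNRK2.5 (0.984) and HSP101 (0.980), a heat shock chaperone.

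To set the 10 genes in their pathway, 48 further brassinosteroid genes in 7 lists were counted, of which 44 were tested. At 29 °C in WT, 10 of these were called higher and 8 lower, beside 7.88% and 12.8% of all genes (20.6% in all). In 35S:APOLO relative to WT 23C, 2 were higher and 3 lower, beside 10.3% of all genes called, and in vim1-3, 2 were higher and 1 lower, beside 6.63%. The median log2 fold changes of the 44 genes were 0.05, -0.12 and -0.08, beside -0.01, -0.03 and -0.03 over all genes. Those named first in each list are the called genes with the largest change, and the others were named after their values were seen.

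Of 8 sterol enzymes upstream of the hormone pathway, 4 were called higher at 29 °C and 1 lower. DWF1, which makes campesterol itself, went from 5392 ± 121 (SD) to 8395 ± 590.3 normalised counts (log2 fold change 0.64, edgeR adjusted p = 0.000310), while STE1, FK and SMT2 rose by 0.53, 0.48 and 0.47 and DWF5 fell by 0.39. SMT2 is known to direct sterols to sitosterol, away from campesterol. Of 5 other inactivating enzymes, 2 rose and 2 fell. The glucosyltransferase UGT73C5 had a log2 fold change of -2.03 (1046 ± 399 to 255 ± 32.9 normalised counts) and its neighbour UGT73C6 one of -1.43. Of their exon stretches of 75 bases, 2.34% and 2.74% occur at another genomic place, so that reads may be split between such paralogs. The acyltransferase BAT1 rose by 1.09 and the reductase BEN1 by 0.56. Both UGT73C genes act on other substrates as well.

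Of 7 genes of the receptor complex, 1 rose and 3 fell at 29 °C. The co-receptor gene SERK4 had a log2 fold change of -1.58, and 24.7% of its stretches of 75 bases occur at another genomic place. The co-receptor BAK1 fell by 0.65 and the receptor BRL3 by 0.78, and BKI1, an inhibitor of the receptor BRI1, rose by 0.48. Among 9 kinases and phosphatases that carry the signal on, the phosphatase BSU1 was called higher, from 2.68 ± 3.27 normalised counts, near the floor of 3 counts, to 17.2 ± 3.21, and the kinase BSK1 fell by 0.33. BEH3, one of 4 homologs of BZR1 and BES1, had a log2 fold change of -1.41 (232 ± 93.5 to 86.4 ± 14.8 normalised counts), and the other 3 were not called.

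Downstream of the signal, 1 of 5 tested bHLH genes rose at 29 °C, BEE2 (0.40), and 1 of 6 growth genes, IAA19, from 105 ± 26.3 to 736 ± 87.2 normalised counts (log2 fold change 2.81, edgeR adjusted p = 4.02e-06). IAA19 is an auxin-induced gene that brassinosteroids also induce.

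In 35S:APOLO the called pathway genes were FK (log2 fold change 0.55), UGT73C5 (-1.69), BAT1 (1.04), BEH2 (-0.51) and BEE3 (-1.0), a bHLH gene that the hormone induces. In vim1-3 they were BAT1 (1.01), BEH3 (-1.33) and TCH4 (1.03), which encodes a cell wall enzyme. BAT1 had 312 ± 112 (SD) normalised counts in WT 23C, 670 ± 13 in WT 29C, 647 ± 9.88 in 35S:APOLO and 634 ± 27.3 in vim1-3. FK, UGT73C5 and BAT1 in 35S:APOLO, and BAT1 and BEH3 in vim1-3, were also called at 29 °C in WT, with the same sign. All these comparisons share the WT 23C libraries, so a trait of those libraries and a change in the other group cannot be told apart.

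**Figure D4:**
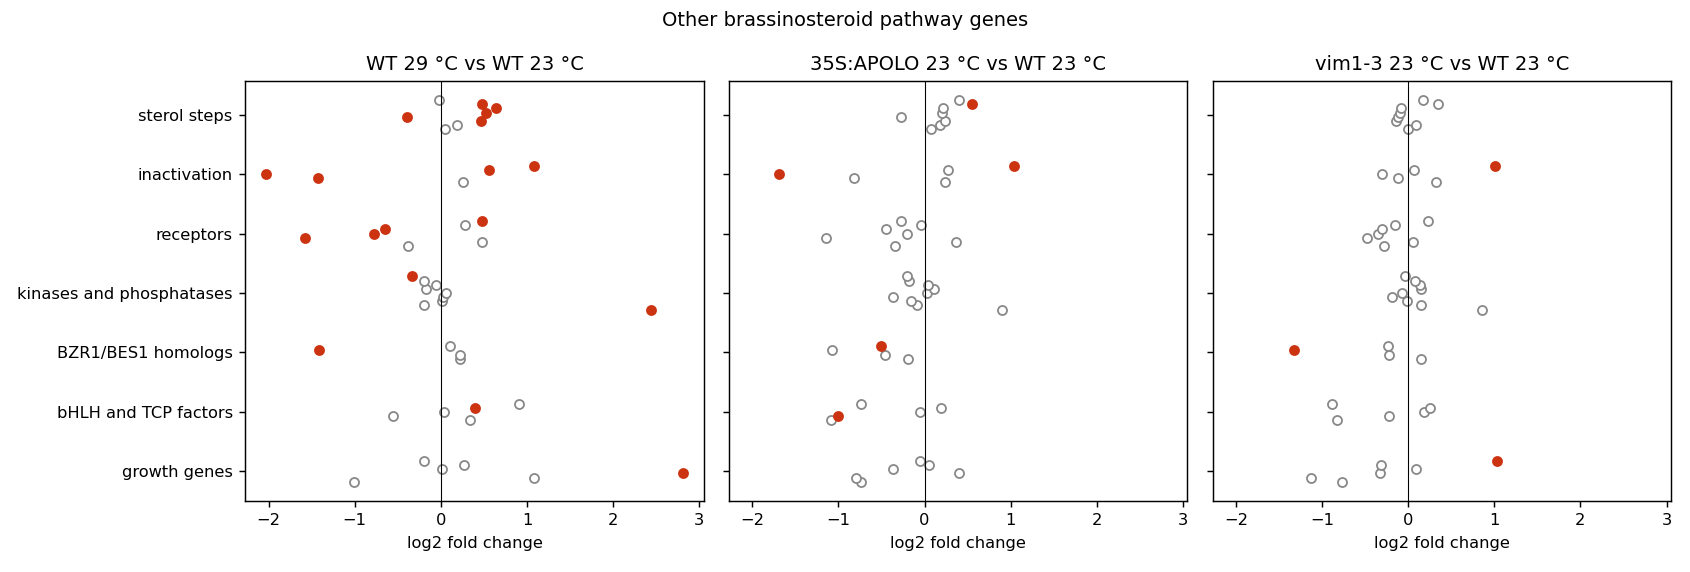
Log2 fold changes of the 44 other brassinosteroid genes tested, 1 row per list, in the 3 comparisons with WT 23C. Filled red points are genes called at an adjusted p below 0.01, 18 of them at 29 °C, 5 in 35S:APOLO and 3 in vim1-3.

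The sequences before the starts of the 3 genes that were higher at 29 °C and of both transcription factor genes are shown for the motifs that BZR1, BES1 and bHLH factors are known to bind. They are the 300 bases upstream of the annotated start, read 5′ to 3′ on the strand of the gene from RefSeq's TAIR10.1 genome: CPD chr5:1706949-1707248 (minus strand), BR6OX2 chr3:11810426-11810725 (plus strand), BAS1 chr2:11380163-11380462 (plus strand), BES1 chr1:6688163-6688462 (plus strand) and BZR1 chr1:28185204-28185503 (plus strand). Capitals mark E-boxes (CANNTG, which includes the G-box CACGTG) and the BZR1 sites CGTGTG and CGTGCG on either strand.
CPD: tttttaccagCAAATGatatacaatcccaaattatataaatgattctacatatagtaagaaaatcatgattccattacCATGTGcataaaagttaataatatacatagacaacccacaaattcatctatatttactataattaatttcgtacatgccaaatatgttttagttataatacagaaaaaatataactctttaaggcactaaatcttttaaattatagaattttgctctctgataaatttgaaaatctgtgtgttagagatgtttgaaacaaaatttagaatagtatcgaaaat
BR6OX2: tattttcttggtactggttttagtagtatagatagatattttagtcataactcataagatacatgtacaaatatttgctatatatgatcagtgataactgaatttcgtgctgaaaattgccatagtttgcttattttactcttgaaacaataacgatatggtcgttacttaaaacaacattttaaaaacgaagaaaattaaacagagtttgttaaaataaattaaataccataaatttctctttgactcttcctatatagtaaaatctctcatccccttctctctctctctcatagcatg
BAS1: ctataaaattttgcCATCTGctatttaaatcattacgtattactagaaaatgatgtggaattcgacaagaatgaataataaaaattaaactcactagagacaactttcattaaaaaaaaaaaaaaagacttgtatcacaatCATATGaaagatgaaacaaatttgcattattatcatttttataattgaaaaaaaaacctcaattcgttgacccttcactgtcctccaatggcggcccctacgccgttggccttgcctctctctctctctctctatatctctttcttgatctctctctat
BES1: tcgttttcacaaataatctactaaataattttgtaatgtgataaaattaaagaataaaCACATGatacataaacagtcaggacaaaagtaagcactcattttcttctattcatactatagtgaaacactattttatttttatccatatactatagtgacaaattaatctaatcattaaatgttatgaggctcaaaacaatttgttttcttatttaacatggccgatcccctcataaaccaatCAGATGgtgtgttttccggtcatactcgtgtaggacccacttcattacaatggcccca
BZR1: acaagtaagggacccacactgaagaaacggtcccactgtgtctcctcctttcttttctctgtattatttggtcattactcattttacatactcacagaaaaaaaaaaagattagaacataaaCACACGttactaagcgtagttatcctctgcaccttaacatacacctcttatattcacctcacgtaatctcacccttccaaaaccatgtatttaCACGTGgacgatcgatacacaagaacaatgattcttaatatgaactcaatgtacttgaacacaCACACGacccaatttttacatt

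BZR1 itself was the one gene of the 10 with a BZR1 site in this window. It holds CGTGTG on the opposite strand 22 and 178 bases before its start, and a G-box 85 bases before it. Over 27443 promoters of protein-coding genes of the same length, 7.64% held either BZR1 site and 7.09% a G-box. An E-box was present in 9 of the 10 genes, all but BR6OX2, and in 61.9% of all promoters. In a window of 1000 bases, 4 of the 10 genes, DWF4, ROT3, CYP90D1 and BZR1, held a BZR1 site, beside 21.1% of all promoters. CPD, BR6OX2 and BAS1, the genes called higher at 29 °C, held no BZR1 site in either window. Both windows end at the outermost annotated start of a gene, so sequence inside the gene was not searched, and CPD has 3 annotated transcripts.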

How the data were processed

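RNA-Seq libraries of Arabidopsis seedlings were compared, with group and replicate letter taken from the labels and age and hours of warmth from the study's methods. The authors used Trimmomatic 0.36 for trimming, SortMeRNA against ribosomal RNA, and STAR 2.5.2b for alignment to TAIR10, counted reads on Araport11 genes with featureCounts (Subread 1.6.5) and deposited raw counts, 1 library per file. The strand setting is not given in the sources used here.

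The analysis ran in R 4.3.3 and used edgeR 4.0.16 (filterByExpr, TMM factors, robust glmQLFit and glmQLFTest on all 12 libraries, Benjamini-Hochberg adjustment over 20664 genes in each of 6 comparisons, threshold 0.01). The p-values rest on a spread per gene that was estimated over all 12 libraries, not only over the 6 compared. Of the 4 groups WT 23C varied most, with a median SD of log2 CPM over all genes of 0.24, against 0.10 to 0.15 in the others. The 10 genes, the lists and the tests were chosen with earlier results of these data known. Members called in a comparison, BZR1 and BES1 were given in every library, and the called gene with the largest change was named for each list. Annotation, exon lengths, overlaps and sequences came from RefSeq's TAIR10.1, in which 37051 of the 37336 genes were found. The E-box was searched for after the data had been seen. The script was tested on simulated counts.

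As alternatives, the factors were replaced by RLE or upper-quartile ones, the tool by DESeq2 1.42.0 (on 12 or 6 libraries), by edgeR on 6 libraries or by limma 3.58.1 (voom with weights per group), and the filter by none or by a minimum of 10 counts per library. A replicate block, a threshold of 0.05 and the omission of each library were also tried.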

Additional observations from a re-analysis of the deposited data

How the results depend on the processing

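Of 1314 values of the 10 genes under other settings, 1179 kept their direction and their side of the threshold. Of 220 values of called genes, 0 changed sign and 49 were no longer called. The threshold of 0.05 is counted among these settings, although with it no sign can change and no call can be lost. The number of genes called at 29 °C in WT was 3, but 5 at a threshold of 0.05, 4 with DESeq2 on 12 libraries, 2 with voom or DESeq2 on 6 and 1 with edgeR on the 6 libraries compared. Of all genes in each fit, 20.6% were called in the main one, 14.2% with DESeq2 on 12 libraries and 12.4% with voom. The share was 8.78% with DESeq2 on 6 and 5.01% with edgeR on 6. In 35S:APOLO against WT 23C the number was 1, but 2 at 0.05, 2 with DESeq2 on 12 libraries, and 0 with edgeR or DESeq2 on 6 libraries. Beside it, 10.3% of all genes were called, 9.19% with DESeq2 on 12, 0.00994% with edgeR on 6 and 5.13% with DESeq2 on 6. In vim1-3 against WT 23C the number was 0, but 2 at 0.05 and 1 with DESeq2 on 12 libraries, beside 6.63% of all genes and 7.75% with DESeq2 on 12. For WT 29C against 35S:APOLO the number was 3, but 4 at 0.05 and with upper-quartile factors, voom, DESeq2 on 12 libraries, and edgeR or DESeq2 on 6. Beside it, 8.17% of all genes were called, 7.96% with upper-quartile factors, 14.8% with voom and 6.91% with DESeq2 on 12. On 6 libraries the share was 17.1% with edgeR and 8.95% with DESeq2. For WT 29C against vim1-3 the number was 3, but 4 with upper-quartile factors, DESeq2 on 12 libraries or a minimum of 10 counts, and 5 at 0.05, with voom, and with edgeR or DESeq2 on 6 libraries. Beside it, 13.6% of all genes were called, 14% with upper-quartile factors, 10.2% with DESeq2 on 12 and 15.8% with the minimum of 10 counts. The share rose to 28.8% with voom and 29.9% with edgeR on 6, and was 14.6% with DESeq2 on 6. Leaving out 1 library gave 1 to 6 genes at 29 °C, 0 to 3 in 35S:APOLO and 0 to 3 in vim1-3 against WT 23C, 0 to 0 between the lines, and 1 to 4 and 1 to 5 for WT 29C against 35S:APOLO and vim1-3. The shares of all genes in the same order were 13.3% to 34.1%, 3.1% to 29.3% and 0.444% to 26.8% against WT 23C. Between the lines the share was 0.582% to 7.78%, and for WT 29C against the lines 3.89% to 17.4% and 7.13% to 24.4%. With the replicate letter as a block, 2, 1, 0, 0, 2 and 1 genes were called in the 6 comparisons in the same order. Of all genes, 17.2%, 7.86%, 3.41%, 1.31%, 5.78% and 10.7% were called with the block. The letters did not pair the libraries: the deviations of same-letter libraries correlated at -0.22 to 0.19, over 0.1 in 2 of 18 pairs, and 1 of 12 libraries correlated best with its own letter. The sign changed only for uncalled values near 0. In 35S:APOLO against WT 23C the log2 fold changes became DET2 0.014, DWF4 0.021 and BZR1 0.019 with RLE factors, DET2 0.091, DWF4 0.095, BR6OX2 0.047 and BZR1 0.099 with upper-quartile factors, DET2 0.018, DWF4 0.023 and BZR1 0.023 with DESeq2 on 12 libraries, DET2 0.012 and BZR1 0.031 with voom. They became DET2 0.027, DWF4 0.034 and BZR1 0.033 with no filter, DET2 0.036, DWF4 0.041 and BZR1 0.042 with a minimum of 10 counts, DET2 0.019, DWF4 0.026 and BZR1 0.024 with edgeR on 6, and DET2 0.020, DWF4 0.027 and BZR1 0.025 with DESeq2 on 6. Without 1 library, the ranges that crossed 0 were, in 35S:APOLO against WT 23C, -0.13 to 0.051 for DET2, -0.049 to 0.11 for DWF4, -0.16 to 0.11 for BZR1, -0.17 to 0.091 for BR6OX2 and -0.18 to 0.10 for CYP90D1. They were -0.0025 to 0.065 for BR6OX2 and -0.072 to 0.19 for BZR1 in vim1-3 against WT 23C, -0.20 to 0.038 for BR6OX2 between the lines, -0.098 to 0.064 for BR6OX1 in WT 29C against 35S:APOLO and -0.035 to 0.13 for DWF4 against vim1-3. The causes were not tested. A floor of 3 counts lay at 2.28 to 6.49 normalised counts per library, below every value of the 10 genes. The fits by edgeR on the 6 libraries compared took the spread from those libraries alone. Over all genes at 29 °C, edgeR on the 6 libraries called 321 genes higher and 688 lower, in place of 1628 and 2636. Against WT 23C it called 0 and 2 in 35S:APOLO, in place of 538 and 1588, and 0 and 1 in vim1-3, in place of 452 and 919.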
